A study of Mus musculus with 12 samples.

Results

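The genes described are 9 amino acid transporters, Slc7a11, Slc7a5, Slc3a2, Slc7a1, Slc7a3, Slc1a4, Slc1a5, Slc38a2 and Slc6a9, taken by name from the 21001 genes with a value in the deposited tables. All 9 were among the 12314 genes tested, which had at least 1 FPKM in at least 3 libraries. FPKM counts fragments per unit of transcript length and of sequencing depth, so it can be set side by side between genes. RNA was sequenced from bone marrow stromal cells (BMSCs, which the labels call stem cells) marked with green fluorescent protein (GFP), in 4 groups of 3 libraries. The labels give strain C57BL/6 and a genotype written as wide type for every group, and sorted cells as the source. TUMOR stands for GFP cells recovered from the injection site of mice that had received them together with RFP-LLCs, Lewis lung carcinoma cells carrying a red fluorescent protein. BM stands for GFP cells recovered from the marrow of mice given both cell types. HOMING stands for GFP cells taken from the marrow of animals injected with them alone, under the skin. NC stands for GFP cells in primary culture. Animal age, the sort gate and the purity of the sort are not given in the sources used here. Nothing in the labels ties a replicate to its own animal or culture, so p-values measure only how these libraries vary, which may be technical variation.

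Amino acid transporters sit in the plasma membrane and either exchange one amino acid for another or carry it in with sodium or down its gradient. Slc3a2 encodes the heavy chain of CD98, a glycoprotein that brings light chains such as Slc7a5 (LAT1) and Slc7a11 (xCT) to the cell surface. When amino acids are scarce, the kinase GCN2 phosphorylates the initiation factor eIF2 alpha, translation of the transcription factor ATF4 rises, and ATF4 activates genes for amino acid import, amino acid synthesis and tRNA charging. Slc7a11 is also a known target of NRF2, the factor that drives antioxidant genes.

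Among the 6 members with a promoter window, Slc7a11 and Slc1a4 held a match in it to the CARE, the element bound by ATF4 dimers. RefSeq windows of build GRCm38.p6 (250 bases before to 50 after a start) were matched for 6 of the 9 members, Slc7a11, Slc3a2, Slc7a1, Slc1a4, Slc38a2 and Slc6a9. Slc7a5, Slc1a5 and Slc7a3 had no window, and bases outside the windows were not searched. The CARE was searched as TGATGNAAN on both strands, and 3.95% of all 32851 windows held a match. In Slc7a11, matches lay 66 to 58 and 48 to 40 bases before the start, on opposite strands and without overlap. In Slc1a4, 1 match crossed the start. The antioxidant response element, searched as TGACNNNGC on both strands, was matched in windows of Slc7a1, Slc38a2 and Slc6a9, against 12.39% of all windows. The 6 members had 9 windows, with several for Slc7a1 and Slc6a9, so a share of members is not a share of windows. A match is a description of letters and not a binding site. The bases before the Slc7a11 start (chr3:50443614-50443863, minus strand) and a short stretch at the Slc1a4 start (chr11:20332707-20332736, minus strand) are shown 5′ to 3′ along the gene, with the CARE matches in capitals.
Slc7a11: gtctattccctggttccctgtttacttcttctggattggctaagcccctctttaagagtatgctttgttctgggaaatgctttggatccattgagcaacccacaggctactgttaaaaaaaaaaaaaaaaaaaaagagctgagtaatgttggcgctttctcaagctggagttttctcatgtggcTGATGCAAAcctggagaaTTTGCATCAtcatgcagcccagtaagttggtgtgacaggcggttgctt
Slc1a4: ctccagcgtgcctcctgcGTTGCATCAtct

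Libraries held 43232145 to 46166519 expected counts. Of 15 stromal markers, 12 passed the expression filter, among them Col1a1, Col1a2 and Vim, and Thy1, Nt5e and Lepr averaged under 1 FPKM in every group. HOMING stood apart in blood cell markers. The sum of 12 neutrophil markers was 0.91 to 2.55 FPKM in TUMOR, 52.1 to 60.3 FPKM in BM, 1732 to 2537 FPKM in HOMING and 1.31 to 2.74 FPKM in NC. The sum of 8 erythroid markers was 1.18 to 2.16 FPKM in TUMOR, 3.00 to 3.53 FPKM in BM, 2108 to 3471 FPKM in HOMING and 0.31 to 0.89 FPKM in NC. HOMING replicate 3 had the highest sum of both lists.

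As a group, the 9 transporters were low in TUMOR and HOMING and high in BM and NC. Their summed level was 379.5, 375.1 and 380.3 FPKM in TUMOR, 908, 902 and 882 FPKM in BM, 445, 437.5 and 457 FPKM in HOMING and 1064, 1108 and 1124 FPKM in NC. The 4 groups did not overlap in this sum. In bulk RNA, fewer cells that express a gene and less RNA per cell cannot be told apart. Each of 8 members was higher in every BM and NC library than in any TUMOR or HOMING library. Slc7a11 was the exception, with NC and HOMING overlapping.

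**Figure D1:**
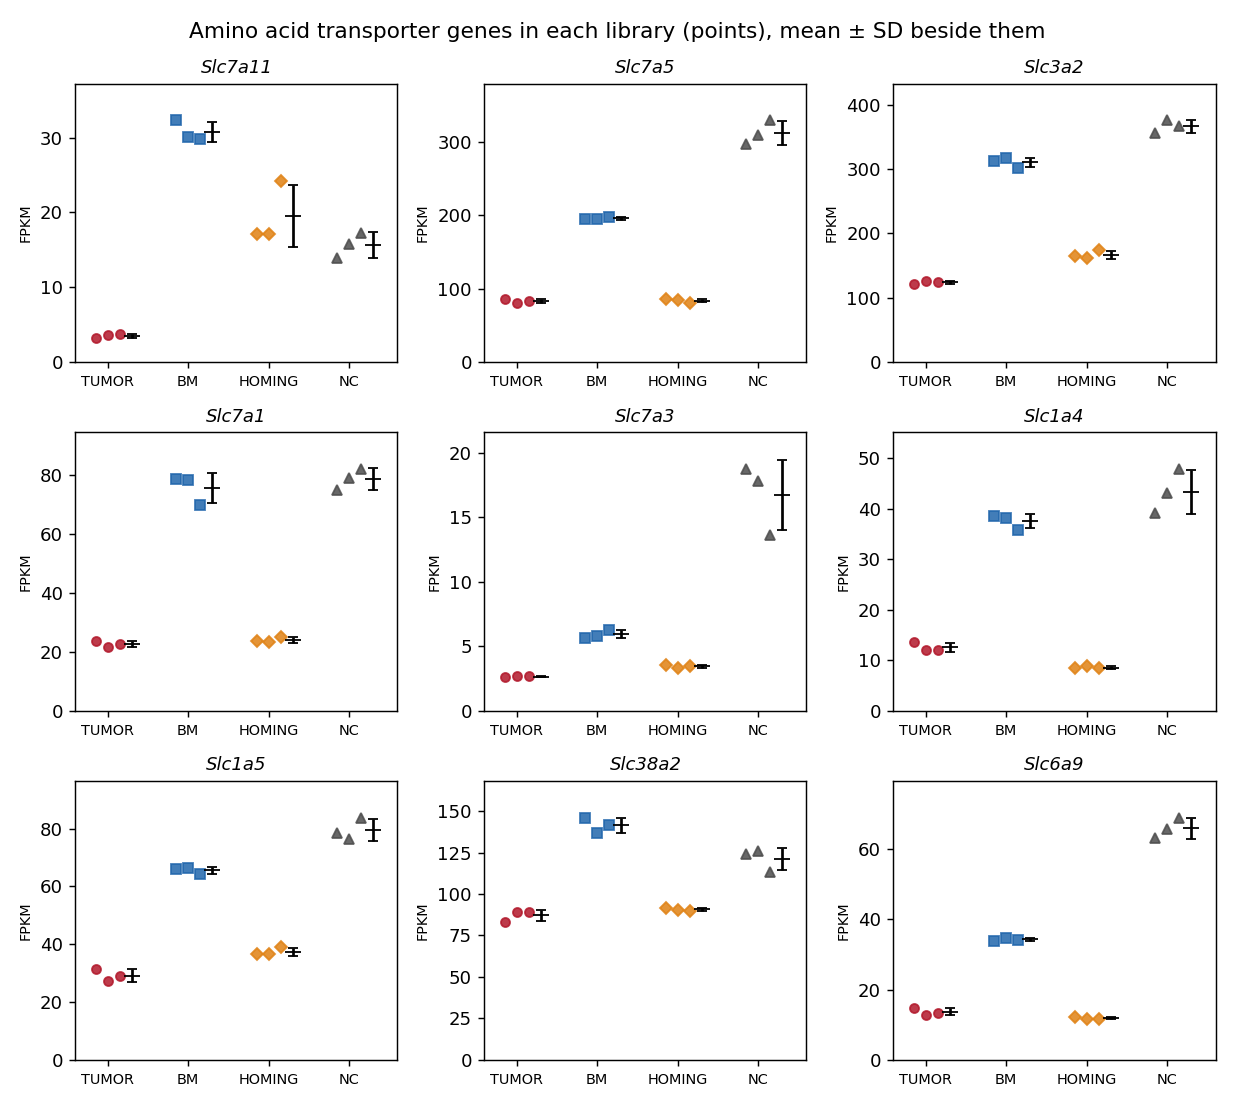
Level in FPKM (vertical axes, from 0) of the 9 transporter genes in the 3 libraries of TUMOR, BM, HOMING and NC, with points for libraries and the mean ± SD (n = 3). BM and NC lie above TUMOR and HOMING for 8 genes, and Slc7a11 is at 29.9 to 32.4 FPKM in BM and 3.19 to 3.72 FPKM in TUMOR.

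A gene is said to have risen or fallen, or is called, where edgeR's quasi-likelihood test gave an adjusted p under 0.05 (Benjamini-Hochberg over the 12314 genes) and the level differed at least 2-fold. Log2 fold changes are given ± SE, and a positive one means higher in the group named first. The comparisons share libraries and are not independent of each other.

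Slc3a2 (Entrez 17254), the CD98 heavy chain, was the most abundant member in all 12 libraries. It stood at 121, 125 and 125 FPKM in TUMOR, 312, 317 and 302 FPKM in BM, 166, 161 and 173 FPKM in HOMING, and 356, 376 and 367 FPKM in NC. No groups overlapped, and TUMOR was lowest. In TUMOR it fell against BM (log2 -1.36 ± 0.04, adjusted p = 2.74e-10) and against NC (log2 -1.68 ± 0.04, adjusted p = 2.89e-11). BM exceeded HOMING by log2 0.92 ± 0.04 (adjusted p = 6.30e-09), which is under 2-fold.

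Slc7a5 (Entrez 20539), the LAT1 light chain that imports leucine and other large neutral amino acids, stood at 85.5, 80.55 and 83.2 FPKM in TUMOR, 195, 195 and 198 FPKM in BM, 85.5, 84.85 and 81.0 FPKM in HOMING, and 296, 309 and 329.5 FPKM in NC. TUMOR and HOMING overlapped, BM lay between them and NC, and NC was highest. BM rose 2.39-fold against HOMING (log2 1.25 ± 0.05, adjusted p = 2.51e-09). TUMOR differed from HOMING by log2 -0.02 ± 0.05, with a 95% interval of -0.14 to 0.09 (adjusted p = 0.723). TUMOR fell 2.43-fold against BM (log2 -1.28 ± 0.05, adjusted p = 1.32e-09) and 4.09-fold against NC (log2 -2.03 ± 0.05, adjusted p = 2.89e-11).

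Slc7a11 (Entrez 26570), the xCT light chain that takes up cystine in exchange for glutamate, was the only member with a higher mean in HOMING than in NC. It stood at 3.19, 3.63 and 3.72 FPKM in TUMOR, 32.35, 30.1 and 29.9 FPKM in BM, 17.1, 17.1 and 24.3 FPKM in HOMING, and 13.9, 15.8 and 17.2 FPKM in NC. BM was highest, TUMOR lowest, and HOMING and NC overlapped. It fell 9.01-fold in TUMOR against BM (log2 -3.17 ± 0.14, adjusted p = 1.74e-09). It fell 5.59-fold in TUMOR against HOMING (log2 -2.48 ± 0.13, adjusted p = 1.28e-08) and 4.86-fold against NC (log2 -2.28 ± 0.13, adjusted p = 1.19e-08). HOMING replicate 3, with the most blood markers, also had the highest Slc7a11 of its group. Without it BM exceeded HOMING by log2 0.88 in place of 0.69 ± 0.13, and HOMING exceeded NC by log2 0.02 in place of 0.20 ± 0.13, with none of these called. The part of blood cells in these values was not tested.

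Slc7a1 (Entrez 11987), the cationic transporter CAT1 for arginine and lysine, fell into a high and a low pair of groups. It stood at 23.8, 21.6 and 22.8 FPKM in TUMOR, 78.7, 78.1 and 69.8 FPKM in BM, 23.8, 23.4 and 25.2 FPKM in HOMING, and 74.8, 78.8 and 82.0 FPKM in NC. TUMOR overlapped HOMING, and BM overlapped NC. BM rose 3.20-fold against HOMING (log2 1.68 ± 0.07, adjusted p = 1.87e-09). The difference of BM from NC was log2 -0.14 ± 0.07, with a 95% interval of -0.28 to 0.00 (adjusted p = 0.0785), and that of TUMOR from HOMING was -0.10 ± 0.07, with an interval of -0.24 to 0.05 (adjusted p = 0.231).

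Slc7a3 (Entrez 11989), the related cationic transporter CAT3, was the least abundant member in TUMOR, BM and HOMING. It stood at 2.61, 2.68 and 2.68 FPKM in TUMOR, 5.67, 5.84 and 6.29 FPKM in BM, 3.55, 3.32 and 3.50 FPKM in HOMING, and 18.7, 17.8 and 13.6 FPKM in NC. NC stood well above the rest and no groups overlapped. BM fell 2.87-fold against NC (log2 -1.52 ± 0.09, adjusted p = 5.83e-08), and TUMOR fell 6.16-fold against NC (log2 -2.62 ± 0.10, adjusted p = 4.03e-10). It has 4 transcripts in the tables, and the leading one, of 2277 bases, took 65.5 to 88.9% of its level.

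Slc1a4 (Entrez 55963), the exchanger ASCT1 for alanine, serine, cysteine and threonine, was the member that differed most between BM and HOMING. It stood at 13.6, 12.15 and 11.98 FPKM in TUMOR, 38.45, 38.2 and 35.9 FPKM in BM, 8.44, 8.84 and 8.47 FPKM in HOMING, and 39.2, 43 and 47.9 FPKM in NC. HOMING was lowest, TUMOR next, and no groups overlapped. BM rose 4.46-fold against HOMING (log2 2.16 ± 0.08, adjusted p = 1.23e-09). TUMOR was higher than HOMING by log2 0.54 ± 0.08 (adjusted p = 0.000119), under 2-fold.

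Slc1a5 (Entrez 20514), the exchanger ASCT2 that also carries glutamine, stood at 31.5, 27.2 and 28.85 FPKM in TUMOR, 65.9, 66.5 and 64.2 FPKM in BM, 36.8, 36.5 and 39.05 FPKM in HOMING, and 78.5, 76.4 and 83.8 FPKM in NC. TUMOR was lowest and no groups overlapped. TUMOR fell 2.31-fold against BM (log2 -1.21 ± 0.06, adjusted p = 8.52e-09). BM exceeded HOMING 1.79-fold (log2 0.84 ± 0.06, adjusted p = 2.56e-07), short of a call.

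Slc6a9 (Entrez 14664), the sodium-coupled glycine transporter GlyT1, stood at 14.8, 12.9 and 13.4 FPKM in TUMOR, 34.0, 34.8 and 34.1 FPKM in BM, 12.3, 11.7 and 11.7 FPKM in HOMING, and 63.05, 65.7 and 69.0 FPKM in NC. HOMING was lowest and no groups overlapped. BM rose 2.94-fold against HOMING (log2 1.56 ± 0.06, adjusted p = 1.90e-09) and fell 2.03-fold against NC (log2 -1.02 ± 0.06, adjusted p = 4.15e-08). The call against NC lies close to the 2-fold limit and is lost when library sizes replace TMM scaling (log2 -0.94).

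Slc38a2 (Entrez 67760), the sodium-coupled neutral transporter SNAT2, varied least. It stood at 83.2, 89.1 and 88.95 FPKM in TUMOR, 146, 137 and 142 FPKM in BM, 91.8, 90.4 and 90.0 FPKM in HOMING, and 124, 126 and 114 FPKM in NC. BM was highest, NC next, and no groups overlapped. It was called in none of the 6 comparisons, and its largest difference was TUMOR against BM (log2 -0.74 ± 0.04, adjusted p = 2.21e-08).

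Set beside all genes, the counts of called members were as follows. In TUMOR against BM, 8 of 9 members fell and 0 rose, where 7.28% of all genes fell and 6.95% rose. The member that was not called was Slc38a2. Without the fold limit, all 9 were lower at an adjusted p under 0.05, where 34.2% of all genes were lower and 35.4% higher. The median log2 fold change was -1.36 over the members and 0.01 over all genes. In TUMOR against NC, 8 of 9 fell, again without Slc38a2, where 6.65% of all genes fell and 9.75% rose. Without the fold limit all 9 were lower, where 36.5% of all genes were lower and 37.2% higher. The medians were -1.91 and 0.01. Of the 2019 genes called here, 1200 were higher and 819 lower, and scaling by library size gave 1464 higher and 637 lower, with the median of all genes shifted by 0.124, while 8 members were still lower.

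In BM against HOMING, 4 of 9 members rose, Slc7a5, Slc7a1, Slc1a4 and Slc6a9, where 3.71% of all genes rose and 6.68% fell. All 9 members were higher in BM at an adjusted p under 0.05 without the fold limit, where 29.3% of all genes were higher and 28.8% lower. The medians were 0.92 for members and -0.00 for all genes. In TUMOR against HOMING only Slc7a11 fell, where 6.37% of all genes fell and 4.42% rose, so that the share of members is near the background. Without the fold limit 2 members, Slc1a4 and Slc6a9, were higher and 4, Slc7a11, Slc3a2, Slc7a3 and Slc1a5, were lower, where 27.9% of all genes were higher and 27.2% lower. The medians were -0.10 and 0.00.

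In HOMING against NC, 7 of 9 members fell, leaving out Slc7a11 and Slc38a2, where 4.69% of all genes fell and 9.64% rose. Without the fold limit 8 were lower, all but Slc7a11, where 34.6% of all genes were lower and 35.4% higher. The medians were -1.81 and 0.01, and scaling by library size shifted the median of all genes by 0.113. In BM against NC, Slc7a3 and Slc6a9 fell, 2 of 9, where 3.57% of all genes fell and 7.93% rose. Without the fold limit 2 members, Slc7a11 and Slc38a2, were higher and 6 were lower, where 34.4% of all genes were higher and 32.2% lower. The medians were -0.32 and 0.02.

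**Figure D2:**
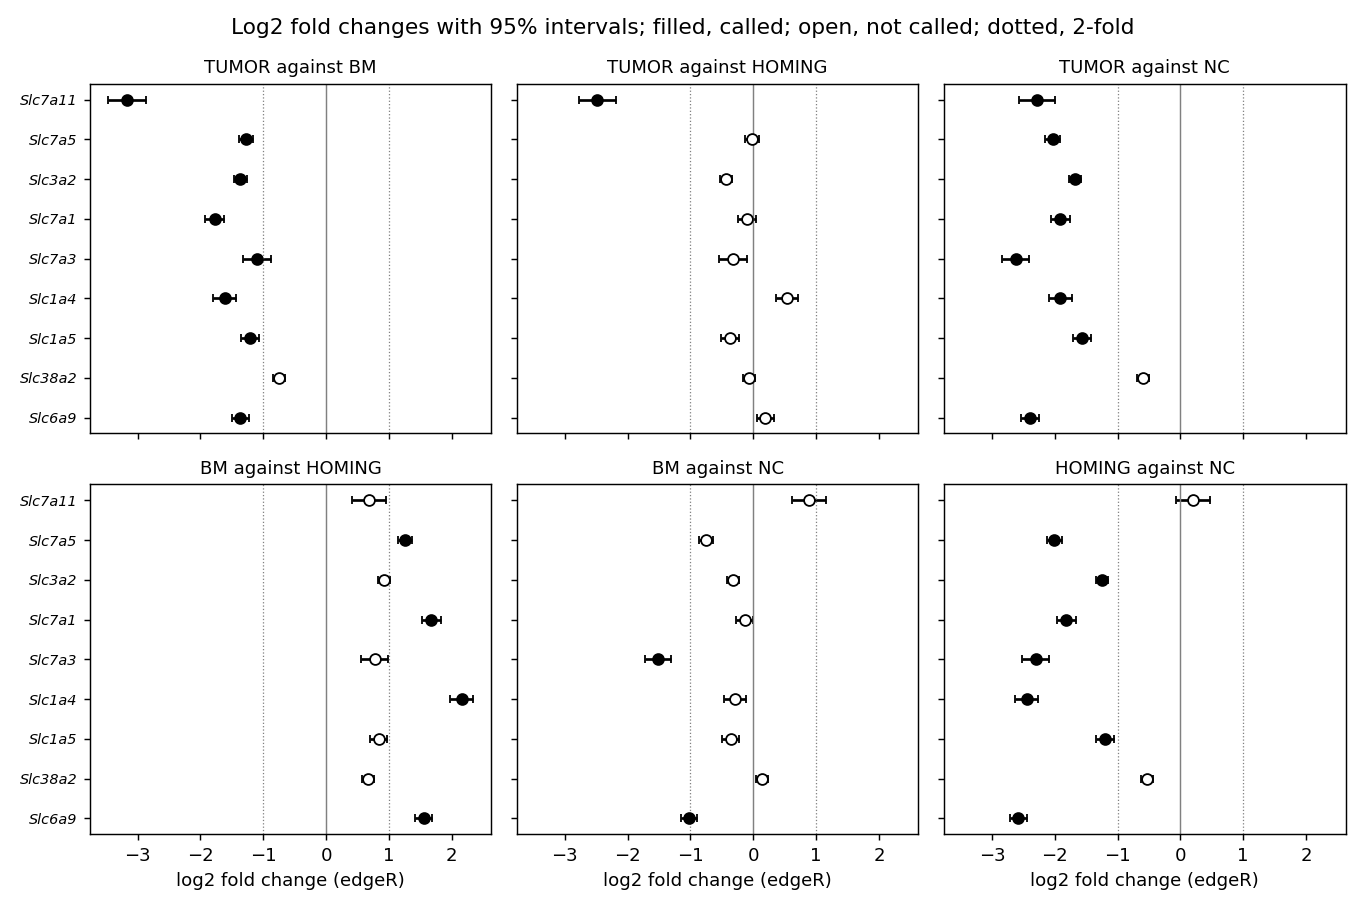
Log2 fold change of the 9 transporters in each of the 6 comparisons, with 95% intervals from edgeR's fit of 12 libraries and the 2-fold limits marked. Members lie below 0 in TUMOR against BM and TUMOR against NC, with medians of -1.36 and -1.91, and above 0 in BM against HOMING, with a median of 0.92.

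The balance between members that share a partner or a substrate also differed between the groups, which is given here as a description with no test. The level of Slc7a5 over that of its heavy chain Slc3a2 was 0.672 ± 0.0314 in TUMOR, 0.632 ± 0.0212 in BM, 0.503 ± 0.0316 in HOMING and 0.851 ± 0.0407 in NC (SD, n = 3 each). Slc7a11 over Slc3a2 ranged from 0.0263 to 0.0298 in TUMOR, 0.0949 to 0.104 in BM, 0.103 to 0.140 in HOMING and 0.0390 to 0.0469 in NC. The RNA level of Slc7a11 relative to that of Slc3a2 was thus lower in TUMOR and NC than in BM and HOMING. Protein was not measured. Slc7a3 over Slc7a1, both cationic transporters, ranged from 0.1095 to 0.124 in TUMOR, 0.0720 to 0.0901 in BM, 0.139 to 0.149 in HOMING and 0.166 to 0.251 in NC, without overlap. Slc1a5 over Slc1a4 was 2.32 ± 0.0850 in TUMOR, 1.75 ± 0.0380 in BM, 4.37 ± 0.242 in HOMING and 1.84 ± 0.139 in NC, and HOMING did not overlap any other group.

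**Figure D3:**
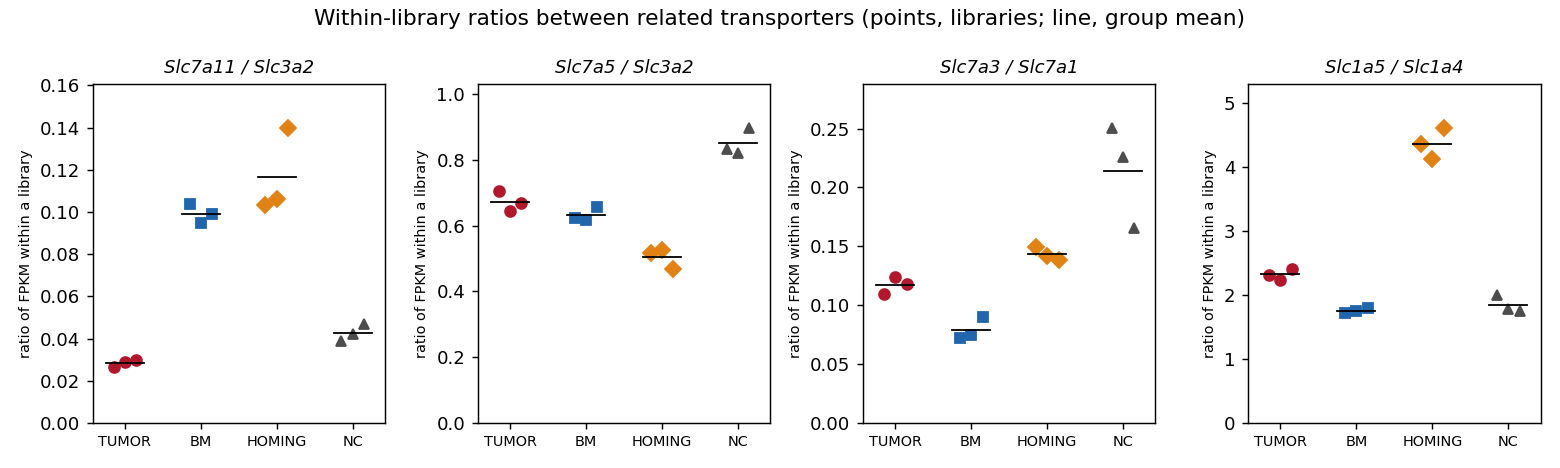
Ratios of FPKM levels between transporters within a library (vertical axes, from 0) for TUMOR, BM, HOMING and NC, with points for libraries and a line for the mean of 3. Slc7a5 over Slc3a2 is highest in NC, at 0.821 to 0.897, and Slc1a5 over Slc1a4 is highest in HOMING, at 4.13 to 4.61.

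Genes of the ATF4 pathway that are not transporters were higher in BM than in HOMING and lower in TUMOR than in BM for most of the list. Of 24 genes, all tested, 16 rose and 0 fell in BM against HOMING, where 3.71% of all genes rose and 6.68% fell. The median log2 of the list was 1.10. Chac1, which degrades glutathione, was at 231 ± 6.79 FPKM in BM and 24.0 ± 1.17 FPKM in HOMING (log2 3.30 ± 0.09, adjusted p = 9.86e-11). Trib3, a pseudokinase that restrains ATF4, was at 92.9 ± 1.98 FPKM in BM and 17.97 ± 0.642 FPKM in HOMING (log2 2.40 ± 0.06, adjusted p = 9.86e-11). In TUMOR against BM, 0 rose and 16 fell (median -1.20), where 6.95% of all genes rose and 7.28% fell. Cth, which makes cysteine from cystathionine, was at 7.26 ± 0.915 FPKM in TUMOR and 57.55 ± 3.59 FPKM in BM (log2 -3.03 ± 0.08, adjusted p = 3.93e-11). In TUMOR against NC 20 fell (median -1.77), in HOMING against NC 21 fell (median -1.51), and in BM against NC 4 fell (median -0.23), with 0 rising in each. Of all genes, 6.65%, 4.69% and 3.57% fell in these comparisons. In TUMOR against HOMING 1 rose, Ddit4, and 1 fell, Cebpb (median -0.03). There 4.42% of all genes rose and 6.37% fell, so that the shares of the list are near the background.

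Aminoacyl-tRNA synthetases, which load amino acids onto tRNAs, differed by smaller steps. Of 20 genes, 4 fell and 0 rose in TUMOR against BM (median -0.69), 10 fell in TUMOR against NC (median -0.97) and 10 fell in HOMING against NC (median -0.98). Of all genes, 7.28%, 6.65% and 4.69% fell in these comparisons. In BM against NC 1 fell, Wars (median -0.16), where 3.57% of all genes fell, so that the share is near the background. In BM against HOMING 0 were called by edgeR, DESeq2 or limma at the 2-fold limit, with 17 higher and 1 lower at an unadjusted p under 0.05 in edgeR (median 0.68). In TUMOR against HOMING 0 were called by these tools, with 4 higher and 9 lower at an unadjusted p under 0.05 (median -0.10). Wars, for tryptophan, was at 45.5 ± 0.627 FPKM in HOMING and 179 ± 8.72 FPKM in NC (log2 -2.09 ± 0.04, adjusted p = 5.17e-12).

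Other amino acid transporters were lowest in TUMOR in their sum. The summed level of the 36 genes on the list was 117.3 to 125.8 FPKM in TUMOR, 207.1 to 215.8 FPKM in BM, 163 to 178.4 FPKM in HOMING and 179.1 to 186.6 FPKM in NC. Of the 13 that passed the expression filter, 1 rose and 5 fell in TUMOR against BM (median -0.18), 1 rose and 5 fell in TUMOR against HOMING (median -0.29), and 1 rose and 4 fell in TUMOR against NC (median -0.11). Of all genes, 6.95%, 4.42% and 9.75% rose and 7.28%, 6.37% and 6.65% fell in these comparisons. The shares of the list that rose are near the background. Between the other groups, 1 rose and 3 fell in BM against HOMING (median 0.04). In BM against NC 3 rose and 0 fell (median 0.13), and in HOMING against NC 2 rose and 1 fell (median 0.17). There 3.71%, 7.93% and 9.64% of all genes rose and 6.68%, 3.57% and 4.69% fell. The shares in HOMING against NC are near the background. Slc7a2, the cationic transporter CAT2, was at 2.93 ± 0.562 FPKM in TUMOR and 25.2 ± 0.492 FPKM in BM (log2 -3.15 ± 0.12, adjusted p = 7.76e-10). Slc38a7, a lysosomal glutamine transporter, was at 31.85 ± 1.07 FPKM in BM and 13.2 ± 0.689 FPKM in HOMING (log2 1.30 ± 0.06, adjusted p = 4.75e-09). Slc7a8, another light chain of CD98, was at 0.340 ± 0.0436 FPKM in BM and 6.88 ± 2.20 FPKM in HOMING, where the blood markers were high, and the part of blood cells in it was not tested.

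The antioxidant genes were called in the comparisons with NC and in none of the others. Of 12 glutathione and NRF2 genes, 4 rose and 0 fell in TUMOR against NC (median 0.13), where 9.75% of all genes rose, while Slc7a11 fell. In HOMING against NC 4 rose and 0 fell (median 0.48), where 9.64% of all genes rose. Nqo1, a quinone reductase, was at 110.5 ± 6.89 FPKM in HOMING and 25.9 ± 3.25 FPKM in NC (log2 1.98 ± 0.10, adjusted p = 2.07e-09). In BM against NC Nqo1 and Gsr, the glutathione reductase, rose and Gpx4, a glutathione peroxidase, fell (median 0.33), where 7.93% of all genes rose and 3.57% fell. By edgeR, DESeq2 and limma, 0 were called in TUMOR against BM, in TUMOR against HOMING or in BM against HOMING, with medians of 0.22, -0.22 and -0.19. At an unadjusted p under 0.05 in edgeR, 7 were higher and 3 lower in TUMOR against BM, 1 higher and 8 lower in TUMOR against HOMING, and 1 higher and 6 lower in BM against HOMING.

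Of 15 kinases and sensors of amino acid supply, 3 rose and 0 fell in TUMOR against BM (median 0.21), where 6.95% of all genes rose. They were Castor2, Sesn1 and Castor1, which act on mTORC1. In TUMOR against NC 4 rose and 0 fell (median 0.11), the same 3 genes and Eif2ak3, the eIF2 alpha kinase PERK, where 9.75% of all genes rose. The level of Eif2ak3 was 8.92 ± 0.101 FPKM in TUMOR, against 3.84 ± 0.396 FPKM in NC (log2 1.10 ± 0.06, adjusted p = 8.48e-09). In TUMOR against HOMING 1 rose, Castor1 (median 0.15), where 4.42% of all genes rose. In HOMING against NC 1 rose, Eif2ak2, and 1 fell, Rragd (median 0.02), where 9.64% of all genes rose and 4.69% fell. The shares of the list in TUMOR against HOMING and in HOMING against NC are near the background. By edgeR, DESeq2 and limma, 0 were called in BM against HOMING (median -0.07) or BM against NC (median 0.02). At an unadjusted p under 0.05 in edgeR, 3 were higher and 6 lower in BM against HOMING, and 7 higher and 7 lower in BM against NC.

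**Figure D4:**
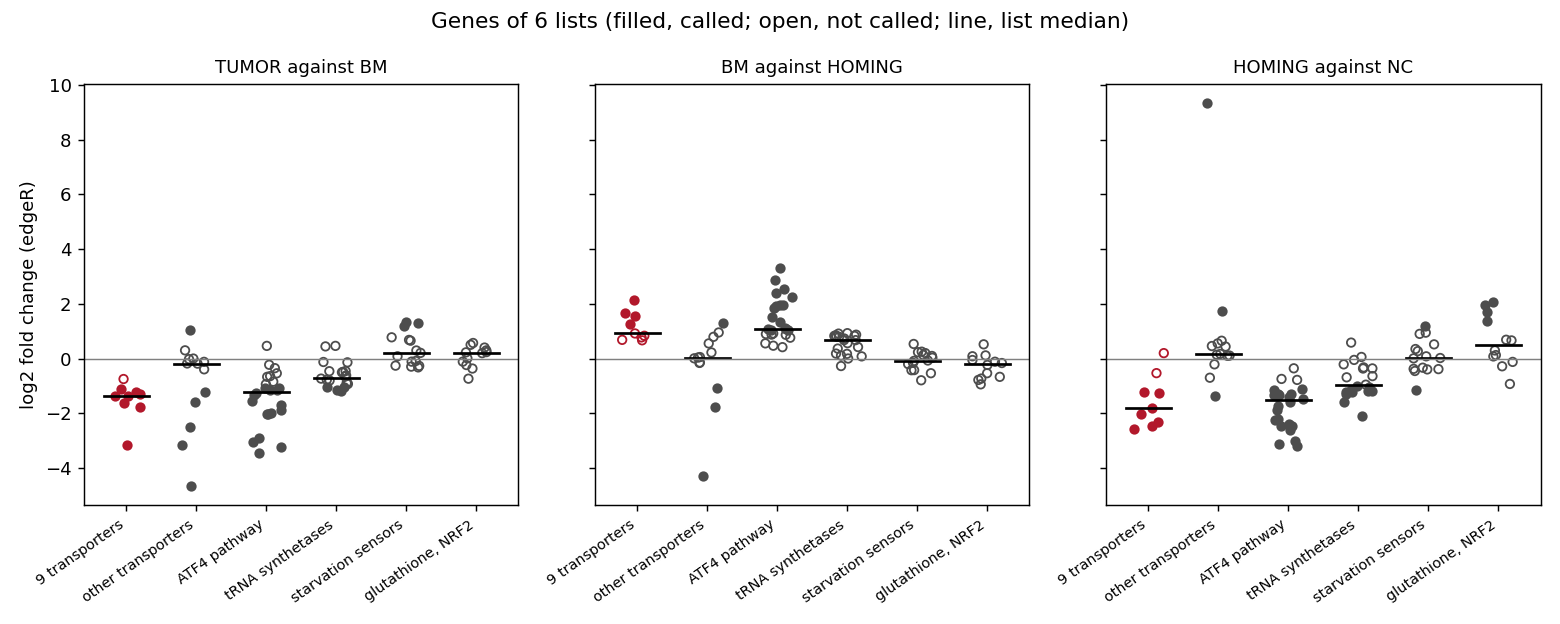
Log2 fold changes (vertical axis) of single tested genes of the 9 transporters and of the lists of related genes in TUMOR against BM, BM against HOMING and HOMING against NC, with called genes filled and a line at each list's median. The ATF4 pathway lies above 0 in BM against HOMING, with a median of 1.10, and below 0 in HOMING against NC, with a median of -1.51.

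Markers of other cells differed between the groups. Macrophage and pan-leukocyte markers summed to 25.1 to 25.6 FPKM in TUMOR, 64.9 to 66.2 FPKM in BM, 364 to 587 FPKM in HOMING and 13.6 to 19.4 FPKM in NC. Over the 3 libraries of a group, the leukocyte gene Ptprc had 5 counts in TUMOR, 212 in BM, 5193 in HOMING and 2 in NC, and Mpo, a gene of granulocyte precursors, had 0 in TUMOR, 82 in BM, 1386 in HOMING and 0 in NC. Without HOMING replicate 3, 4 members were called in BM against HOMING and 7 in HOMING against NC. Epithelial markers summed to 69.55 to 115 FPKM in TUMOR, 6.32 to 6.94 FPKM in BM, 5.90 to 6.44 FPKM in HOMING and 1.94 to 4.23 FPKM in NC. In TUMOR this sum was made of Krt8, at 64.6 ± 25.3 FPKM, and Krt19, at 21.6 ± 0.728 FPKM, with Epcam at 0.00667 FPKM. The part of blood, epithelial or other cells in the transporter levels of TUMOR, BM and HOMING was not tested.

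**Figure D5:**
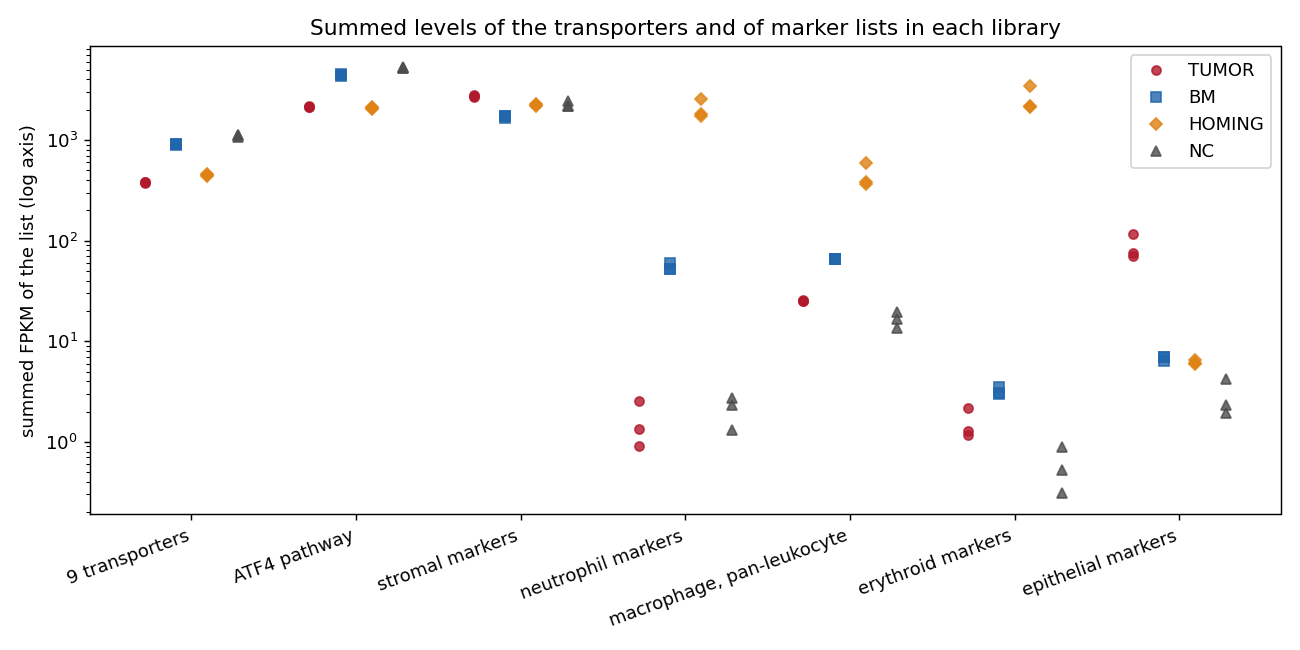
Summed level in FPKM (log axis) of the 9 transporters, of the ATF4 pathway and of the marker lists, with a point for each library of TUMOR, BM, HOMING and NC. Transporters are at 375.1 to 380.3 FPKM in TUMOR and 437.5 to 456.6 FPKM in HOMING, and neutrophil markers are at 0.91 to 2.55 FPKM in TUMOR, 52.1 to 60.3 FPKM in BM, 1732 to 2537 FPKM in HOMING and 1.31 to 2.74 FPKM in NC.

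Likeness between genes was described by Pearson's r of log2(FPKM + 1) over the 12 libraries, which share 4 group levels, so that many genes reach a high r. Among the members, Slc7a5 and Slc6a9 were most alike (r = 0.996), and Slc7a11 had r of 0.403 to 0.711 with the others. Among the 8283 genes that averaged 5 FPKM or more, the nearest to Slc7a11 were Il6 (r = 0.995), Slc7a2 (r = 0.990) and Abcb1b (r = 0.982). Il6, which encodes a cytokine, was at 1.81 FPKM in TUMOR, 32.4 FPKM in BM, 19.3 FPKM in HOMING and 13.3 FPKM in NC. The nearest gene was Got1 for Slc7a5 (r = 0.998), Cth for Slc3a2 (r = 0.994), Shmt2 for Slc7a1 (r = 0.998), Fbxw11 for Slc7a3 (r = 0.996), Trib3 for Slc1a4 (r = 0.993), B4galt1 for Slc1a5 (r = 0.994), Rab9 for Slc38a2 (r = 0.986) and Mtfr1 for Slc6a9 (r = 0.998). Shmt2, Cth and Trib3 belong to the ATF4 list.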

How the data were processed

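RNA of 12 libraries was used, 3 in each of TUMOR, BM, HOMING and NC, grouped by the sample titles. Reads were mapped with Bowtie 0.12.2 to mm8, per the submitters' processing notes. The name of the counting program is not given in the sources used. The deposited tables of the authors hold expected counts (estimated reads per transcript, not normalized) and FPKM (scaled by the authors to length and mapped fragments). Both were summed per gene. Expected counts were rounded, scaled by TMM (factors 0.929 to 1.039) and modelled over all 4 groups with edgeR 4.0.16 under R 4.3.3, with two-sided quasi-likelihood tests checked on simulated data. The test took genes that reached 1 FPKM in 3 libraries or more.

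Members and lists were chosen with earlier results of these data known. Of other lists, up to 4 genes per comparison could be named, those with the smallest adjusted p among called genes or else the highest FPKM, and per member the 3 genes most like it. Promoter windows are from RefSeq (GRCm38.p6), not the authors' build. Alternatives used DESeq2 1.42.0, limma 3.58.1, other scalings and filters, the leading transcript, a replicate block and leaving out each library. Plots used Python 3.11.15, pandas 2.3.3 and matplotlib 3.10.9.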

Additional observations from a re-analysis of the deposited data

How the results depend on the processing

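Outside the setting with no minimum fold, 857 of 864 recomputed values of members kept direction and call. The count of genes called was 930 (TUMOR against BM), 1301 (TUMOR against NC) and 626 (BM against NC) with limma at a pseudocount of 1 FPKM. With no expression filter it was 3162, 2702, 3420, 2581, 2537 and 3302, and with no minimum fold 8576, 6776, 9068, 7158, 8198 and 8617 (TUMOR against BM, HOMING and NC, BM against HOMING and NC, HOMING against NC). With no minimum fold the members called were 6 in TUMOR against HOMING, 9 in BM against HOMING and 8 in BM against NC. In BM against NC the members called were 1 in place of 2 under limma at either pseudocount, library size scaling and TMM over genes expressed in NC, and 1 to 2 when single libraries were left out. The lost call was Slc6a9, at log2 -0.92, -0.94, -0.94 and -0.99 under those settings and -0.98 without NC replicate 3. Slc7a3 in TUMOR against BM was at -0.92 with limma at a pseudocount of 1 FPKM. Slc7a5 in TUMOR against HOMING lay between -0.053 and 0.0036 when single libraries were left out, the highest without TUMOR replicate 2 (adjusted p = 0.966 in edgeR). Values for limma came from log2 of the authors' FPKM, without TMM factors, and a pseudocount draws folds of low genes towards 0. Slc6a9 averaged 34.3 FPKM in BM and 65.9 FPKM in NC. The causes were otherwise not tested.

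The labels do not say that replicate numbers pair the samples. Deviations of same-numbered libraries correlated at -0.169 to 0.265 over 18 pairs, and those of other-numbered libraries at -0.227 to 0.199 over 36 pairs. Deviations within a group of 3 libraries are not independent, so these values cannot decide whether samples were paired. With the replicate block, 1750, 1325, 2018, 1285, 1421 and 1770 genes were called in the order above, and 8, 1, 8, 4, 2 and 7 members. With 3 libraries a group, differences of members within the intervals given were not resolved. The lowest member count was 286, for Slc7a3 in TUMOR.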
